A study of Mus musculus with 2 samples.

Results

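The circadian clock genes described here are the 10 genes Per1, Per2, Per3, Arntl, Clock, Cry1, Cry2, Nr1d1, Nr1d2 and Dbp, chosen by name among the 19505 genes that could be named on the array. They were represented by 18 of the 41174 probes, and 5 genes had 1 probe. The data were 2 two-colour arrays of brain RNA from C57BL/6J female dams at 8 weeks of age on postpartum day 0. All samples came from dams that had just given birth. On the first array, brain RNA of TDAG51-/- dams (KO in the labels and figures, in Cy3) was hybridized with that of TDAG51+/+ dams (WT, in Cy5), and on the second with that of TDAG51-/-Tg2 dams (KO Tg, in Cy5). TDAG51-/-Tg2 dams lack the endogenous gene and carry 1 of the study's transgenic lines, in which TDAG51 is driven by the BAI1-AP4 promoter, active mainly in the cerebral cortex and hippocampus. How many dams each sample holds, the time of day at which the brains were taken, and whether the same TDAG51-/- extract was used on both arrays are not given in the sources used here.

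In the molecular clock, the activators CLOCK and BMAL1 (the protein of Arntl) bind E-boxes and switch on the Per, Cry, Nr1d1, Nr1d2 and Dbp genes. The PER and CRY proteins then block these activators, while NR1D1 and NR1D2 repress Arntl and other genes through elements called RREs, and DBP acts on D-boxes. Genes driven through E-boxes and D-boxes and genes driven through RREs therefore peak at different times of the day. Per1 is also switched on quickly by light, neuronal activity and glucocorticoids through elements other than the E-box.

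The probes on which the results below turn were the single Per1 probe, both Cry1 probes, which differed from each other, and the 2 brightest Clock probes. Positions are on mm7, as in the scanner output, and are not placed in exons or introns here. The Per1 probe lay at chr11:69190950-69191009 on the plus strand. The Cry1 probes lay on the minus strand, at chr10:84685114-84685173 for the brighter and chr10:84673350-84673409 for the dimmer. The Clock probes lay on the minus strand, at chr5:76144675-76144734 for the brighter and chr5:76167876-76167935 for the second.
Per1 probe: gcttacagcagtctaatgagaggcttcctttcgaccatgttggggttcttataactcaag
Cry1 brighter probe: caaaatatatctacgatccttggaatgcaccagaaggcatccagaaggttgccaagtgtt
Cry1 dimmer probe: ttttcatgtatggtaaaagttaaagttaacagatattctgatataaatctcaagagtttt
Clock brightest probe: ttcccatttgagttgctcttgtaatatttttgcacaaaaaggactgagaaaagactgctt
Clock second probe: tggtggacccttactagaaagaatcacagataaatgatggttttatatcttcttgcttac

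Because Per1 stood apart from the other members, its 2 promoter windows in RefSeq (GRCm38.p6) are shown, each from 250 bases before to 50 bases after a start site. The first lies at chr11:69098699-69098998 and the second at chr11:69099902-69100201, both on the plus strand. Capitals mark matches, on either strand, to the E-box CACGTG, the D-box TTATGTAA, the RRE core AGGTCA and the CRE core TGACG, the last bound by the activity-regulated factor CREB.
Per1 first promoter: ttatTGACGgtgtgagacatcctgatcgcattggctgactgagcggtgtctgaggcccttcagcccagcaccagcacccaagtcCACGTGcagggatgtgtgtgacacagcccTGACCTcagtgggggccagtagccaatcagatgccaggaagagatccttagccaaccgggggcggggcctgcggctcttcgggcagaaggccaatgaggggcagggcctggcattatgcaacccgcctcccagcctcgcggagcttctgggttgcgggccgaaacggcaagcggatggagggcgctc
Per1 second promoter: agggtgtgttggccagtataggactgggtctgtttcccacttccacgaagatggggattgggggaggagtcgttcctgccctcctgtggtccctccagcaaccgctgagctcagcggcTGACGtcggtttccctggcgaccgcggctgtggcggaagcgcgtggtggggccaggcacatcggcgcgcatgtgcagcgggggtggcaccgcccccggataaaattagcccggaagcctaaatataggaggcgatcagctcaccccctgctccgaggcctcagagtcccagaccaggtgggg
The E-box was found in 2 of the 13 windows of the 9 members in the table (Per1 and Cry1), against 7.15% of all 32851 windows. The D-box was found in 1 window (Per3, with 2 matches), against 0.938%. The RRE core was found in 4 (Arntl, Clock, Nr1d2 and Per1), against 16.3%, and the CRE core in 4 (Per1 in both windows, Cry1 and Cry2), against 20.8%. No 2 matches overlapped in the windows of the members. Per2 was not matched in this table.

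Each comparison rested on a single array without a dye swap, so the spread between dams was not measured and all differences below are descriptions. Beside each stand 2 other measures. The first is the median SD of the log2 ratio over spots of 1 probe, which was 0.063 for the TDAG51+/+ array and 0.065 for the TDAG51-/-Tg2 array. The second is the difference between the TDAG51-/- channels of both arrays, which stayed within 0.37 on the log2 scale for 95% of the 33251 probes tested (those well above background in at least 1 channel of each array). The second compares Cy3 with Cy3, so it holds no dye difference, and whether it holds a difference between extracts is not known. Neither replaces replicate dams, and precision is limited by having so few arrays. Of the 18 member probes, 17 were tested and covered 9 genes. The probe for Per3, a period gene with a weaker role in the core loop, was not well above background in any channel (56.9 beside TDAG51+/+ at 60.1, and 56.1 beside TDAG51-/-Tg2 at 85.9), and no fold is given for it.

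At the 2-fold threshold of the study's methods, with the brightest probe for each gene, 1 of 9 genes (Per1) was lower in TDAG51-/- than in TDAG51+/+ and 0 were higher. Among all probes tested, 4.26% were at least 2-fold lower and 5.09% higher in this comparison. Against TDAG51-/-Tg2, 0 of 9 genes passed the threshold in either direction, compared with 3.75% of all probes lower and 4.79% higher. TDAG51-/-Tg2 was set against TDAG51+/+ only through the Cy5 channels of different arrays. Here 1 gene (Per1) was at least 2-fold lower and 0 were higher, against 3.66% and 3.44% of all probes. Counted by probe, 2 of 17 (1 each of Clock and Cry1) were at least 2-fold higher in TDAG51-/- than in TDAG51+/+. With so few members, these counts are near the background. The median log2 ratio over the 9 genes was -0.041 against TDAG51+/+ and -0.0073 against TDAG51-/-Tg2, beside medians of -0.0012 and 0.011 over all 16869 genes tested. With median centring the medians of the 9 genes were -0.22 and -0.13.

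**Figure D1:**
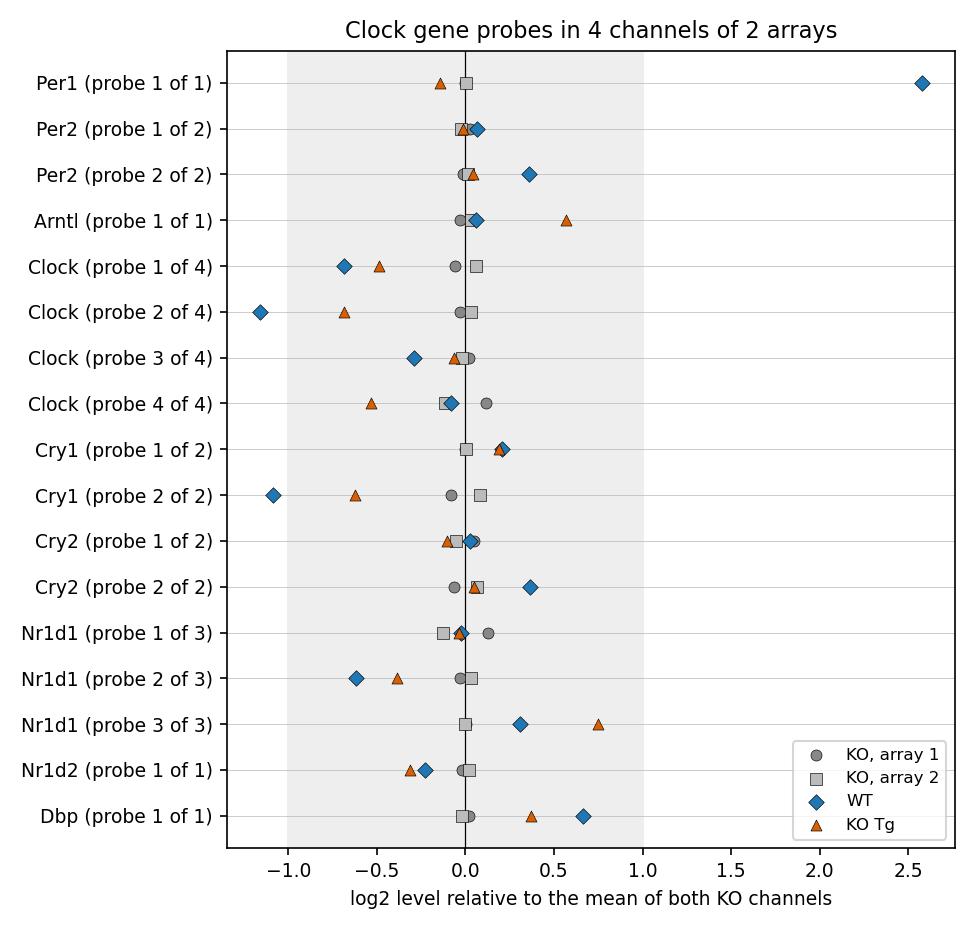
Normalized level of each tested clock gene probe in the 4 channels of both arrays, on the log2 scale (x axis) relative to the mean of the TDAG51-/- channels, with probes of a gene ordered from the brightest (y axis). KO is TDAG51-/-, WT is TDAG51+/+, KO Tg is TDAG51-/-Tg2, and the grey band spans 2-fold in each direction. The Per1 probe in WT lies 2.58 above KO, while its KO Tg value is beside KO.

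Per1, the period gene most quickly induced by outside signals, was the one member with a large difference. Its intensity was 685 in TDAG51-/- beside 4855 in TDAG51+/+. On the second array it was 698 in TDAG51-/- and 741 in TDAG51-/-Tg2. The TDAG51+/+ sample was thus high, and the other 3 channels were close together. The log2 ratio of TDAG51-/- over TDAG51+/+ was -2.58 (5.97-fold lower), and that over TDAG51-/-Tg2 was 0.15. Without normalization the small difference to TDAG51-/-Tg2 changed sign (-0.080). Across arrays, TDAG51+/+ was higher than TDAG51-/-Tg2 by 2.72 (6.58-fold), whereas the TDAG51-/- channels differed by 0.0031. Only 67 of the 33251 probes tested (0.201%) had a ratio against TDAG51+/+ as low as that of Per1.

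The Per1 value in TDAG51+/+ rested on 1 spot. Its pixels were even, with a mean of 4855, a median of 4764 and an SD of 565 over 64 pixels, a coefficient of variation of 11.6% compared with a median of 11% for probes of similar signal. The spot carried no outlier mark, and the 14 spots around it ranged from 41.9 to 3321 in the same channel. Per1 was 1 of 513 probes (1.54%) that were at least 2-fold higher in TDAG51+/+ than in both other samples. Other probes of the genes with this pattern were counted by their ratio against TDAG51+/+ only, and most did not pass 2-fold. In 371 pairs of such a probe with another tested probe of its gene, the other's median log2 ratio against TDAG51+/+ was -0.074. Of these other probes, 10.8% were at least 2-fold lower, beside 4.26% of all probes tested. For probes lower in TDAG51-/- than in both controls, the share was 24.4% of 328 pairs. Per1 had no other probe, so the difference could not be checked in this way. Within 300 kb of the Per1 probe on mm7, 44 other probes were tested and had a median log2 ratio against TDAG51+/+ of -0.22. Of these, 4 (9.09%) were also at least 2-fold higher in TDAG51+/+ than in both other samples (AK053467, TC1465218, Alox12b and Tmem88, named after their values were seen). The part of these features in the Per1 value was not tested.

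**Figure D2:**
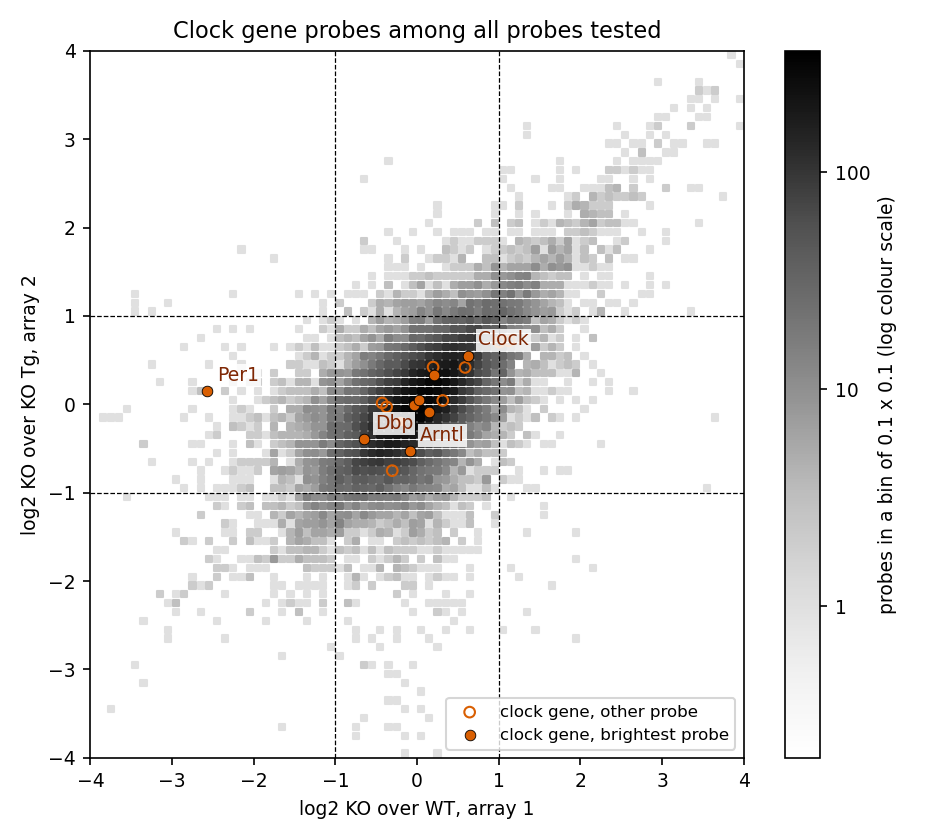
Log2 ratio of KO over WT on the first array (x axis) against that of KO over KO Tg on the second (y axis). Grey squares count all probes tested on a log colour scale (27 probes lie outside the axes), orange points are clock gene probes, and dashed lines mark 2-fold. KO stands on both axes, so the slope of the cloud is partly shared. Per1 lies far to the left at a y value of 0.15, 2 further probes, of Clock and Cry1, lie just right of the 2-fold line, and the rest lie inside the lines.

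The other members of the Per and Cry families, the repressors of the loop, showed smaller differences. The brighter Per2 probe had 3214 in TDAG51-/- and 4021 in TDAG51+/+ on the first array, and 3108 and 3845 in TDAG51-/- and TDAG51-/-Tg2 on the second. After normalization the samples lay together, with log2 ratios of -0.041 and -0.0073. The dimmer Per2 probe had ratios of -0.37 and -0.03. The brighter Cry1 probe had 1449 and 1944, then 1468 and 1991, with log2 ratios of -0.21 and -0.19. The dimmer Cry1 probe went the other way, with 825 in TDAG51-/- and 448 in TDAG51+/+, then 920 and 651, and ratios of 1.01 and 0.71. The Cry1 result therefore depended on the probe. The brighter Cry2 probe had 7428 and 9843, then 7039 and 9173, with ratios of 0.026 and 0.051, which lie within the spot SD and turned negative with median centring. The dimmer Cry2 probe had ratios of -0.43 and 0.01.

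Arntl and Clock encode the activators. The Arntl probe had 609 in TDAG51-/- and 723 in TDAG51+/+ on the first array, and 634 and 1082 in TDAG51-/- and TDAG51-/-Tg2 on the second. Its log2 ratio was -0.092 against TDAG51+/+ and -0.53 against TDAG51-/-Tg2, so that TDAG51-/-Tg2 was the highest of the 3 samples, at 0.51 above TDAG51+/+. The brightest Clock probe had 4598 and 3670, then 5044 and 4354. Its ratios were 0.62 and 0.55, both beyond the limit of 0.37 set by the TDAG51-/- channels, but 0.32 and 0.21 without normalization. In either direction, 45.9% of all probes tested passed this limit against TDAG51+/+ and 45% against TDAG51-/-Tg2. Of the 17 member probes, 8 passed it in each comparison, so passing it does not set Clock apart. The second Clock probe, for the transcript AK030352, had 2790 and 1490, then 2910 and 2124, with ratios of 1.13 and 0.72. The remaining Clock probes had ratios of 0.31 and 0.043, and of 0.2 and 0.42. All 4 Clock probes were thus higher in TDAG51-/- in both comparisons, by amounts from 0.043 to 1.13, except that the smallest of these turned with median centring (-0.0025) and without normalization (-0.19).

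The probes that were higher in TDAG51-/- tended to be those with few G and C bases. All 5 member probes with at most 35% GC, which were 3 Clock probes, the dimmer Cry1 probe and the Nr1d2 probe, were higher in TDAG51-/- in both comparisons, although Nr1d2 was not with median centring or without normalization. Of the 6 member probes with over 45% GC, 2 were higher against each control. Over all probes tested, the median log2 ratio against TDAG51+/+ was 0.13 at up to 35% GC and -0.10 above 45%, and against TDAG51-/-Tg2 it was 0.12 and -0.12. The part of probe composition in the Clock and Cry1 values was not tested.

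The nuclear receptors Nr1d1 and Nr1d2 repress genes with RREs. The brightest of 3 Nr1d1 probes had 797 in TDAG51-/- and 809 in TDAG51+/+, then 668 in TDAG51-/- and 833 in TDAG51-/-Tg2, with log2 ratios of 0.15 and -0.091, the first of which was -0.024 without normalization. The second Nr1d1 probe had ratios of 0.59 and 0.42, and the third had -0.30 and -0.75. The 3 probes did not share a direction. Nr1d2 had 17851 and 23078, then 18781 and 22479, with ratios of 0.21 and 0.33, and both directions turned with median centring and without normalization. Dbp encodes a D-box activator and is a common marker of clock output. It had 6613 in TDAG51-/- and 14230 in TDAG51+/+ on the first array, and 6595 in TDAG51-/- and 11870 in TDAG51-/-Tg2 on the second. Dbp was lower in TDAG51-/- than in both controls, with ratios of -0.64 and -0.39, and TDAG51-/-Tg2 lay 0.29 below TDAG51+/+. The TDAG51-/- channels differed by 0.043 for Dbp.

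Both arms of the clock were then set against each other, since their genes peak at different times of the day. The E-box and D-box arm held the 5 tested genes Per1, Per2, Nr1d1, Nr1d2 and Dbp, and the RRE arm held Arntl, Clock and Cry1, which is driven through E-boxes as well as RREs and whose window above held an E-box and no RRE core. Cry2 was put in neither arm. Against TDAG51+/+, the median log2 ratio was -0.041 in the first arm and -0.092 in the second, a difference of 0.051. Against TDAG51-/-Tg2, the medians were -0.0073 and -0.19, a difference of 0.18. Between TDAG51-/-Tg2 and TDAG51+/+ the difference of the arms was -0.28, and between the TDAG51-/- channels it was -0.11. All were under 2-fold. The difference against TDAG51+/+ changed sign with the choice of probe, the normalization and the use of the mean. That against TDAG51-/-Tg2 changed sign with the choice of probe (values of both in the closing section). None of the other 4 tested genes of its arm showed a difference of similar size to that of Per1, the next being Dbp at -0.64. Without time points, the phase of the samples was not measured, and a small difference of the arms does not show a shared phase.

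The other clock genes comprised 22 genes, of which 21 were tested, with medians of -0.25 against TDAG51+/+ and -0.17 against TDAG51-/-Tg2. Of these, 2 were at least 2-fold higher and 0 lower against TDAG51+/+, and 1 was higher and 2 lower (Btrc and Gsk3b) against TDAG51-/-Tg2. Of all 16869 genes tested, 796 were higher and 807 lower against TDAG51+/+, and 760 higher and 693 lower against TDAG51-/-Tg2. Rora, an activator at RREs that is abundant in cerebellar Purkinje cells, had 9055 and 5096, then 8655 and 8207, with log2 ratios of 1.21 and 0.52. All 3 Rora probes were higher, by 1.05 to 1.21 against TDAG51+/+. Bhlhe40, an E-box repressor, had ratios of -0.68 and -0.54. Gsk3b, a kinase that acts on clock proteins, had -0.44 and -1.03 by its brighter probe, and -0.17 and -0.24 by the dimmer.

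Regional markers also differed. Of 10 cerebellar markers, 9 were at least 2-fold higher in TDAG51-/- in both comparisons. Of all 16869 genes tested, 445 were at least 2-fold higher in both and 288 lower in both. Cbln1, Pcp2 and Zic1 were saturated, and the summed intensity of the other 7 was 97432 to 105854 in TDAG51-/-, against 17224 to 21127 in the controls. The sum of 10 hindbrain markers was 7002 to 7192 against 1818 to 2165, with 7 higher in both. Striatal markers summed to 50803 to 53118 against 184562 to 189708, with 8 of 10 at least 2-fold lower in both, and 9 unsaturated cortical and hippocampal markers to 16192 to 17553 against 38601 to 50288, with 4 of 9 lower in both. For TDAG51-/-Tg2 over TDAG51+/+, the median log2 ratio of the unsaturated markers was 0.021 in the cerebellar list (from -0.27 to 0.80), 0.018 in the hindbrain list (from -0.31 to 1.30), -0.086 in the striatal list (from -0.36 to 0.38) and -0.072 in the cortical and hippocampal list (from -0.69 to 0.69). The clock gene ratios to TDAG51-/- were measured in this setting, in which fewer cells of a type and less RNA per cell cannot be told apart, and the part of regional content in them was not tested. In the same comparison of TDAG51-/-Tg2 with TDAG51+/+, Per1 was at -2.72. Of 8 genes typical of the suprachiasmatic nucleus, the seat of the central clock, 6 were tested. The RNA came from whole brain, so their values are not a reading of that nucleus. Their medians were -0.51 against TDAG51+/+ and -0.64 against TDAG51-/-Tg2, with 5 lower in TDAG51-/- in each comparison. Vip was 555 and 1430, then 624 and 1208, and Prok2 had ratios of -1.99 and -1.74. Avp had ratios of -0.37 and -0.56, Grp of -0.65 and -0.48, and Rgs16 of -0.33 and -0.81. Lhx1 was higher (2.26 and 1.90), and Six6 was near background. All 6 general brain markers were well above background. TDAG51 itself (Phlda1) had 350 in TDAG51-/- and 7283 in TDAG51+/+ beside it, both well above background. The second array gave 44.1 in TDAG51-/- and 50.5 in TDAG51-/-Tg2, neither well above background. The TDAG51-/- channel thus gave signal at the probe of the deleted gene on the first array and not on the second. The source of that signal was not tested. This probe did not show the transgene.

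**Figure D3:**
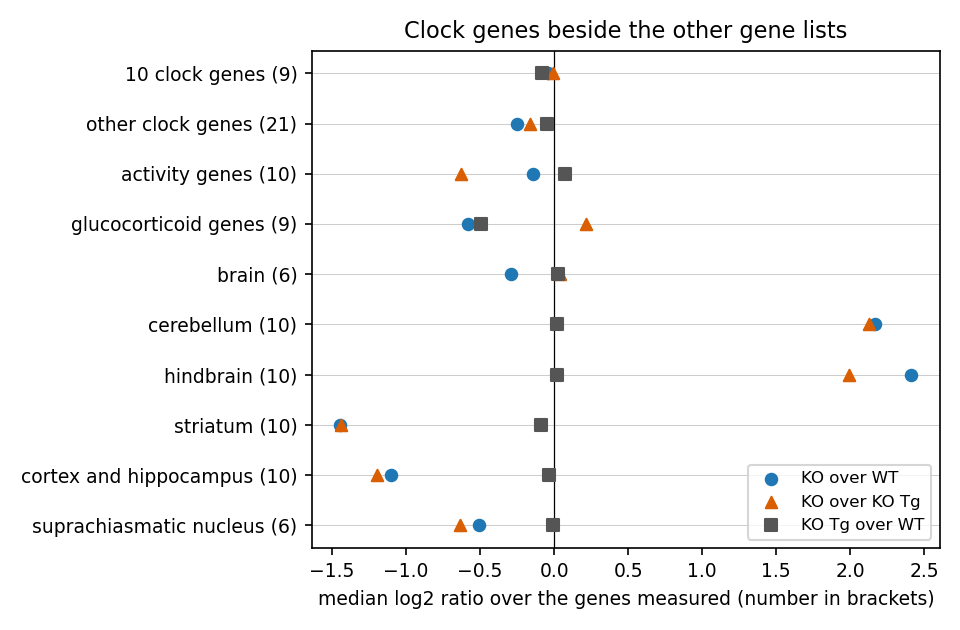
Median log2 ratio of the 10 clock genes and of the other gene lists (y axis, with the number of genes tested in brackets), for KO over WT, KO over KO Tg and KO Tg over WT (x axis). The clock genes lie near 0 (-0.041, -0.0073 and -0.080), the cerebellar and hindbrain lists near 2 in both comparisons with KO, and the glucocorticoid list at -0.58, 0.22 and -0.49, the second of which was -0.097 with median centring. Saturated probes are included, and the temperature-responsive list is left out.

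Genes that share inputs with Per1 were examined next. Glucocorticoid-responsive genes numbered 10, of which 9 were tested. Their median log2 ratio was -0.58 against TDAG51+/+, 0.22 against TDAG51-/-Tg2 and -0.49 for TDAG51-/-Tg2 over TDAG51+/+, beside -0.0012, 0.011 and -0.011 over all genes. The TDAG51-/- channels also differed for these genes. The second array was higher than the first by a median of 0.22, beside 0.0023 over all genes. The median against TDAG51-/-Tg2 changed sign with median centring (-0.097) and without normalization (-0.28). By their brightest probes, all 9 were lower in TDAG51-/-Tg2 than in TDAG51+/+, also with offset 0, median centring and no normalization. Of them, 2 (Sgk1 and Plin4) were at least 2-fold lower. Of all 16869 genes tested, 51.6% were lower in this comparison and 3.76% at least 2-fold lower. Sgk1, which encodes a kinase induced by corticosteroids, had 11275 in TDAG51-/- and 57584 in TDAG51+/+, then 16576 in TDAG51-/- and 22482 in TDAG51-/-Tg2. As with Per1, TDAG51+/+ was the high sample by this probe, with ratios of -1.74 against TDAG51+/+ and 0.14 against TDAG51-/-Tg2. The TDAG51-/- channels of this probe differed by 0.52. A much dimmer Sgk1 probe went the other way, at 0.26 and -0.39, and at 0.97 for TDAG51-/-Tg2 over TDAG51+/+. Its TDAG51+/+ signal of 57.8 was not well above background. Tsc22d3 (GILZ) had 3 probes, with ratios from -0.76 to -0.50 against TDAG51+/+ and from 0.07 to 0.51 against TDAG51-/-Tg2. Fkbp5, a chaperone of the glucocorticoid receptor, was lower against both by its brightest probe, at -1.46 and -1.03. The other Fkbp5 probes had 0.26 and -0.77, and -0.75 and -0.36, so the direction against TDAG51+/+ depended on the probe. For TDAG51-/-Tg2 over TDAG51+/+ the 3 Fkbp5 probes disagreed, at -0.28 for the brightest and 1.15 and -0.58 for the others. The scanner marked Mt2 and Ddit4 as saturated in TDAG51+/+, so their ratios to it are bounds. These genes were listed with earlier results known, and the likeness to Per1 is a description.

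**Figure D4:**
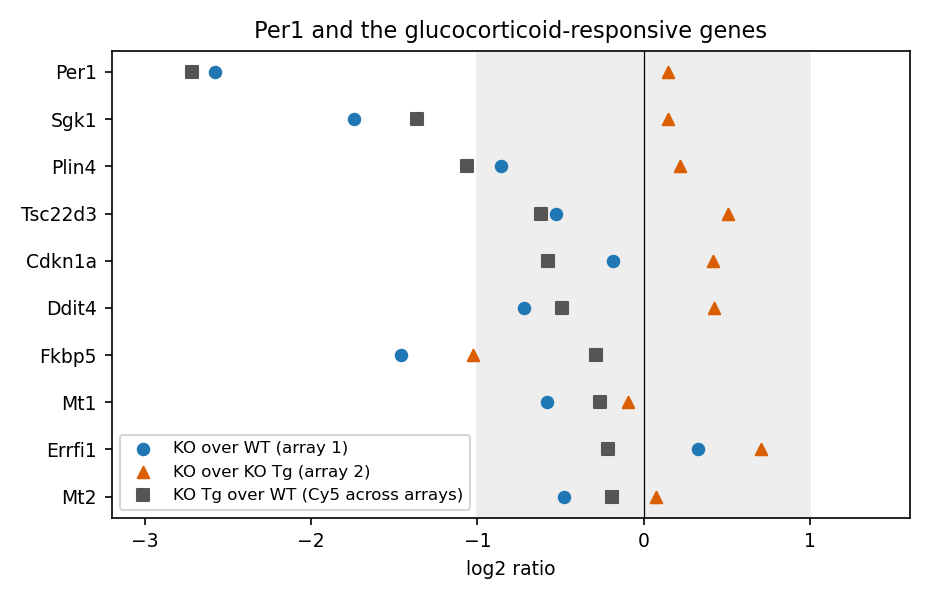
Log2 ratios (x axis) of Per1 and of the 9 glucocorticoid-responsive genes tested (y axis), by their brightest probes, ordered by KO Tg over WT. The grey band spans 2-fold in each direction. All lie below 0 for KO Tg over WT, with Per1 at -2.72. Mt2 and Ddit4 were saturated in WT, so their points against WT are bounds and their place in the order is not set.

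Activity-dependent genes, many of which are driven through CREs like Per1, were examined as well. All 10 were tested, with medians of -0.14 against TDAG51+/+, -0.63 against TDAG51-/-Tg2 and 0.076 for TDAG51-/-Tg2 over TDAG51+/+. Without Junb, which was saturated, these were -0.46, -0.86 and 0.13. Against TDAG51+/+, 3 (Egr1, Egr2 and Fosb) were at least 2-fold lower, and against TDAG51-/-Tg2, 4 were (Egr1, Egr2, Arc and Npas4). Of all 16869 genes tested, 807 and 693 were at least 2-fold lower in these comparisons. Egr1 had 9030 and 38834, then 8811 and 30755, so that both controls were high. Fos had 1292 and 816, then 1277 and 1188, with ratios of 0.83 and 0.34. The part of glucocorticoid or activity inputs in the Per1 value was not tested. Of the 5 temperature-responsive genes tested, Cirbp, Hsp90aa1 and Hsph1 were saturated in both Cy5 channels, so no median is given. The other genes were Rbm3 and Hspa8. Rbm3 had ratios of 0.27 and 0.99 by its brighter probe, and 0.0089 and -0.19 by the dimmer. Hspa8 had -0.38 and -0.20 by its brighter probe, and -0.17 and -0.17 by the dimmer.

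By the 2 ratios to TDAG51-/-, the genes outside all lists most like Clock, the member with the largest difference in 1 direction against both controls, were Mmp8, Ppl and Gsdme among 16763 genes (Euclidean distance 0.015 to 0.017). The Gsdme probe was saturated in Cy5, so its ratios are bounds. Those most like Per1, a comparison added after the values were seen, were Retsat (0.043), Spam1 (0.099) and Msgn1 (0.20). Retsat had 541 in TDAG51-/- and 3910 in TDAG51+/+, then 457 and 495.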

How the data were processed

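Brain RNA of TDAG51-/-, TDAG51+/+ and TDAG51-/-Tg2 dams was measured on 2 two-colour Agilent whole mouse genome arrays. The authors deposited the scanner output, with the mean and background intensity of each spot, 0 or 1 marks for background, saturation and outliers, and a log10 ratio of Cy5 over Cy3. They also deposited a log2 ratio, which correlated with the scanner's ratio of Cy3 over Cy5 (r = 0.982 and 0.984 across probes) and was therefore read as TDAG51-/- over control, and its normalization is not given in the sources used here. Median intensities were 322 to 325 in Cy3 and 348 to 368 in Cy5.

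Here, intensities were corrected with normexp (offset 50) and normalized by loess within arrays in limma 3.58.1 (R 4.3.3), without control and outlier spots, and spots of a probe were averaged. Channels of different arrays were compared after Aquantile normalization. The brightest probe represented a gene. Of 41174 probes, 32719 were named by accession, symbol or synonym from a table of GRCm38.p6. Python 3.11.15 with pandas 2.3.3, numpy 2.4.6 and matplotlib 3.10.9 was used for the remaining steps. The method was tested on simulated data. No test across dams was possible.

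The text names all 10 members, Phlda1, the 4 other clock genes with the largest smaller log2 ratio in 1 direction, the 3 genes nearest to the member with the largest such ratio, and list members, except genes that are not reported here. The members and lists were chosen with earlier results of these data known. The alternatives were offset 0, median centring, no normalization, the scanner's and the deposited ratio, all probes of a gene, a stricter background filter and, for TDAG51-/-Tg2 over TDAG51+/+, the path through the TDAG51-/- channels. After the data were seen, Per3 kept, Per1 left out and means of the arms were added.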

Additional observations from a re-analysis of the deposited data

Results flagged for a closer look

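The 2 comparisons gave opposite directions beyond the spot SD for Per1 and Nr1d1, and these differences were not tested. For Per1, the log2 ratio of TDAG51-/- was -2.58 against TDAG51+/+ and 0.15 against TDAG51-/-Tg2. The latter was within the limit of 0.37 set by the TDAG51-/- channels and was -0.080 without normalization. For the brightest Nr1d1 probe, the ratios were 0.15 and -0.091, both within this limit. The first of these was -0.024 without normalization.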

How the results depend on the processing

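Per1 stayed the one member at least 2-fold lower in TDAG51-/- than in TDAG51+/+ under all alternatives run (log2 ratio -2.80 to -2.58), except that 2 members passed without normalization, when Dbp reached -1.10. In the other counts, no alternative changed the number of members past 2-fold. The difference of the arms against TDAG51+/+ was -0.12 with median centring and without normalization, -0.61 with the median of all probes, 0.15 without Per1 and -0.69 with means. Against TDAG51-/-Tg2 it was -0.28 with the median of all probes and 0.055 with means, and for TDAG51-/-Tg2 over TDAG51+/+ it was -0.87 with means. Of 180 values of single members under alternatives, 17 had the other sign, all of Per1 against TDAG51-/-Tg2, Cry1, Cry2, Nr1d1 or Nr1d2, and the largest main value that turned was 0.33. Without normalization the median of all probes moved by -0.12 and -0.21. The counts of all probes past 2-fold depended on the setting. Against TDAG51+/+ there were 1693 higher and 1416 lower in the main setting (54.5% higher), 3085 and 2215 with offset 0, 3841 and 2675 with the scanner's ratio, 3744 and 2742 with the deposited ratio, 1157 and 2723 without normalization (29.8% higher) and 1650 and 1848 with median centring (47.2% higher). Against TDAG51-/-Tg2 there were 1593 and 1248 (56.1% higher), 2934 and 2023 with offset 0, 3738 and 2462 with the scanner's ratio, 3519 and 2591 with the deposited ratio, 934 and 2861 without normalization (24.6% higher) and 1450 and 1747 with median centring (45.4% higher). The scanner's and deposited ratios give no level for each channel, so TDAG51-/-Tg2 over TDAG51+/+ was not run with them. No paired analysis was possible because each comparison had 1 array. The cause of these changes was not tested. For dim probes such as that of Per3 no ratio is reported, since the signals were near background.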
